A study of Caenorhabditis elegans with 2 samples.

Results

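PHA-4 entries at and around the pha-4 gene itself were examined in ChIP-seq peak lists from Caenorhabditis elegans embryos. An entry is 1 called interval with its summit, the base of strongest enrichment, and its signal, the caller's own value. Signal is read here as enrichment against control reads, although the sources used here do not name the caller. Every entry whose summit lay within 25 kb of the gene was taken from 4 lists on the ce11 build. These were 27 of 21931 entries in the list called on both replicates pooled, 8 of 2177 in the thresholded list derived from it by the irreproducible discovery rate, 21 of 30000 in replicate 1 and 31 of 30000 in replicate 2. The 8 thresholded entries are among the 27 pooled ones, and the 31 entries of replicate 2 form 27 separate intervals because some overlap.

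The study profiled eGFP-tagged PHA-4, a fusion to enhanced green fluorescent protein, in 2 biological replicates of whole embryos of mixed stages from both sexes. Both replicates come from strain OP37, with the mutation unc-119(ed3) on chromosome III and the transgene insertion wgIs37, so there is 1 group and no contrast of conditions. The antibody is labelled pha-4 although the experiment is described as targeting the eGFP fusion, no extraction protocol is provided, and the promoter of the tagged copy is not given in the sources used here. The strain carries tagged copies of pha-4 in addition to the gene on chromosome V. Reads of the gene and of the insertion were not separated in the lists, and how far the inserted sequence extends, and whether the control worms carried it, is not given in the sources used here. What these copies contribute to any value at this locus was not tested.

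PHA-4 is the worm FoxA protein, a winged-helix (forkhead) transcription factor required for embryonic cells to form the pharynx, the feeding organ at the front of the gut. It is also made in the intestine and acts in adult lifespan. FoxA proteins bind short AT-rich DNA elements and can do so in closed chromatin.

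The gene (F38A6.1, WBGene00004013) lies on the plus strand of chromosome V from 20753052 to 20760317 and has 3 annotated transcripts. Form a starts at 20753052 and has 8 exons, form b starts at 20755491, and form c starts at 20756910. The annotated starts of forms a and b coincide with their start codons, so distances to them are distances to the start codon. Intron 1 of form a is 2247 bp long (20753094 to 20755340) and intron 2 is 1329 bp (20755581 to 20756909), so form c begins at the end of intron 2. Upstream, 8705 bp separate form a from the 5' end of dnj-25, an auxilin-type J-domain gene on the minus strand. Downstream, 4653 bp separate pha-4 from elp-1. Positions below are bp from the form a start, with minus signs upstream.

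The windows of 4 entries are shown: the strongest upstream entry, the entry at the form a start and the strongest entries of introns 1 and 2. Each is 201 bp, 100 bp on each side of the summit, on the plus strand of ce11, read from the RefSeq genome of that build. In the first pair, from introns 2 and 1 (chrV:20756704-20756904 and chrV:20753885-20754085), capitals mark matches on either strand to the published PHA-4 consensus. That consensus is TNTTNNN, where the first N is A or G, the second G or T, the third A or G, and the last C or T.

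Intron 2 entry at +3752: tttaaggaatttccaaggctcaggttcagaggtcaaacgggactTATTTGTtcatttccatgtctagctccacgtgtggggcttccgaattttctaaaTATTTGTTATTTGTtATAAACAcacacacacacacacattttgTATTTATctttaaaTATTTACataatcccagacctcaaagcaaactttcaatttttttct

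Intron 1 entry at +933: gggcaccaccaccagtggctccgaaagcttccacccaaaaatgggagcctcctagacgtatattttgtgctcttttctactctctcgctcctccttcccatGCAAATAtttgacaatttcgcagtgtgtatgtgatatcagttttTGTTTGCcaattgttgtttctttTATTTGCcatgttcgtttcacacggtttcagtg

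In the second pair, from the upstream stretch (chrV:20749131-20749331 and chrV:20752742-20752942), capitals mark the GA repeat GAGAGA or its reverse complement TCTCTC.

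Upstream entry at -3821: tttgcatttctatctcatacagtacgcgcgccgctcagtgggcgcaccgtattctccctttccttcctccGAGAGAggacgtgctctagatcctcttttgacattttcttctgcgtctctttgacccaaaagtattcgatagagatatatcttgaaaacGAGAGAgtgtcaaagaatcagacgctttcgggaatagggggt

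Start-proximal entry at -210: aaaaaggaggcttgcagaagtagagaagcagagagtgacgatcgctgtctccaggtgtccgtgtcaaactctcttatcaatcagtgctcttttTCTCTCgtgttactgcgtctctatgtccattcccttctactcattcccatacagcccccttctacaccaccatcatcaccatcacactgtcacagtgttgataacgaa

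The strongest signal at the locus lay in the upstream stretch. The entry at -3821 (20749101 to 20749386, summit 20749231) had a pooled signal of 234 and was the ninth strongest of all pooled entries (rank 9). Its signal was 107 in replicate 1 (rank 14) and 138 in replicate 2 (rank 6), so it stood near the top of every list. The entry at -7588 (20745332 to 20745595) had a pooled signal of 157 (rank 43), with 77.5 in replicate 1 (rank 50) and 63.3 in replicate 2 (rank 170). Its summit is at -1118 bp from the dnj-25 start, and it was the only one of the 8 thresholded entries with the higher signal in replicate 1. The entry at -6044 (20746876 to 20747139) had a pooled signal of 88.2 (rank 360), with 13.9 in replicate 1 (rank 2701) and 74.1 in replicate 2 (rank 100). Its summit is at -2662 bp from the dnj-25 start, nearer to it than to any pha-4 start.

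The start of form a carried the entry at -210 (20752710 to 20752973), with a pooled signal of 111 (rank 166). Replicate 2 gave 93.6 there (rank 32) and replicate 1 gave 14.5 (rank 2566). The summits differed as well: replicate 1 had its summit at -26 and replicate 2 at -201, a shift of -175 bp. This entry and the one before form c were the only 2 thresholded summits in promoter windows, defined as 1000 bp before and 200 bp after each annotated pha-4 start.

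Within the gene, the leading entry sat at the end of intron 2. The entry at +3752 (20756739 to 20756897, summit 20756804) lies at -106 bp from the form c start and +1313 bp from the form b start. Its pooled signal was 190.0 (rank 19), and it was the second strongest entry of the whole replicate 2 list (signal 167, rank 2), against 40.5 and rank 385 in replicate 1. Intron 1 held the entry at +933 (20753853 to 20754116), with a pooled signal of 99.2 (rank 239), 41.8 in replicate 1 (rank 358) and 66.1 in replicate 2 (rank 144). It lies at -1506 bp from the form b start. A weaker entry at +5553 (20758473 to 20758736) had its summit in the 60-bp intron 6, with 39.4 pooled (rank 1910), 10.1 in replicate 1 (rank 4442) and 26.7 in replicate 2 (rank 1515).

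The remaining thresholded entry lay apart from these, at -23911 (20729009 to 20729272), just inside the 5' end of ipla-3, a gene of the intracellular phospholipase A2 family on the minus strand. Its summit is 121 bp downstream of the nearest of the annotated ipla-3 transcript starts. The pooled signal was 56.3 (rank 1016), with 15.8 in replicate 1 (rank 2305) and 40.2 in replicate 2 (rank 646). The other 7 thresholded entries all fell between the 5' end of dnj-25 and the 3' end of pha-4.

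**Figure D1:**
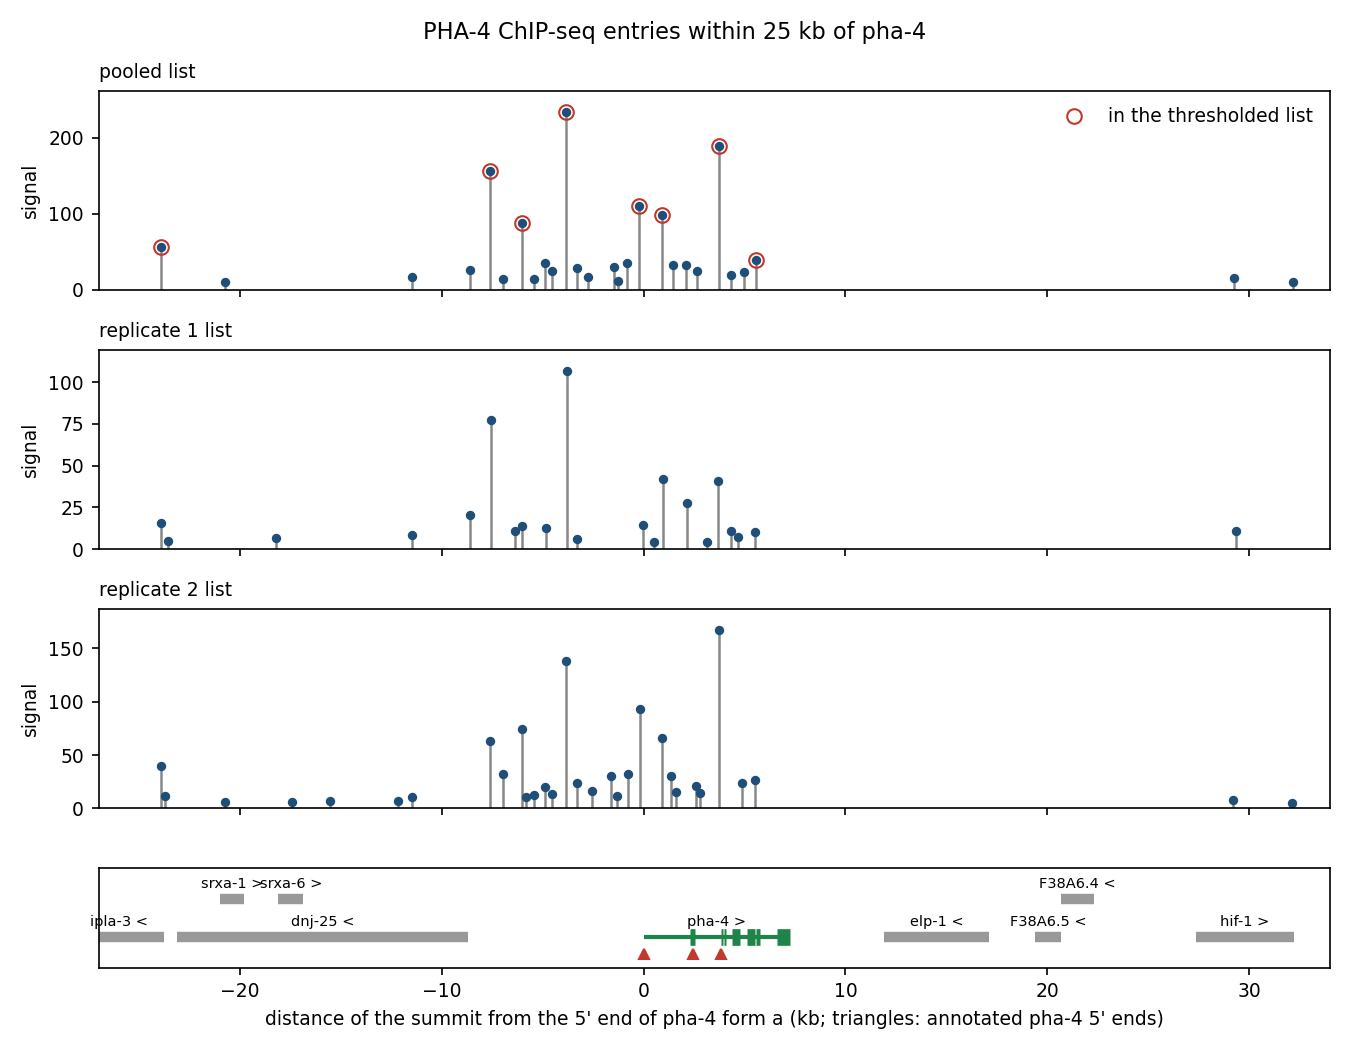
Signal (the caller's value, no unit) of every entry within 25 kb of pha-4 against distance of its summit from the form a start (kb), for the pooled list and each replicate, with thresholded entries circled, over a map of the protein-coding genes (boxes on the pha-4 line are exons of form a). The tall entries lie between dnj-25 and intron 2, led by 234 at -3821 and 190.0 at +3752 in the pooled list, and the gap between pha-4 and hif-1 holds none.

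The threshold ran through the locus. The lowest signal in the thresholded list was 35.9, and the entry at +5553, at 39.4, was the nearest above it near pha-4. Just outside lay the entry at -831, with 35.2 (rank 2239), which replicate 2 called at 32.4 and replicate 1 did not call. Matched by signal, this entry was in the thresholded list of the ce10 build. Next came the entry at -4871, with 34.9 (rank 2263), called in both replicates at 12.7 and 20.5.

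The share of pooled entries that reached the thresholded list was 29.6% near pha-4 (8 of 27, 95% exact Clopper-Pearson interval 13.8 to 50.2), against 9.93% of all pooled entries. Intervals here cover counting error only, and neighbouring entries are not independent. The median pooled signal was 28.4 for the 27 entries and 12.8 over the list. The 21 entries of replicate 1 had a median signal of 10.9 against 5.70 for that list, and the 31 of replicate 2 had 20.5 against 8.03. Among the strongest 2177 entries of its own list, replicate 1 had 6 of its 21 near pha-4 (28.6%, 11.3 to 52.2) and replicate 2 had 14 of its 31 (45.2%, 27.3 to 64.0), where 7.26% of either list qualifies by construction. Each list thus placed more of its strong entries here than its overall share, and replicate 2 had more of them.

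All 8 thresholded entries overlapped an entry in both replicates, as did 98.9% of all thresholded entries. Of the 27 pooled entries, 12 overlapped an entry in both replicates (44.4%, 25.5 to 64.7), against 43.4% of all pooled entries, a share close to that of the list as a whole. Another 12 of the 27 were matched in replicate 2 only and 3 in replicate 1 only, against 6688 and 4132 of all 21931 pooled entries. The 3 seen in replicate 1 only were at -8595 near the dnj-25 start (pooled 26.7, replicate 1 20.2), at +2124 in intron 1 (33.1 and 27.4) and at +4341 in intron 4 (19.9 and 10.9). The entry at +2124 ranked 940 in replicate 1, whose own summit lies at -291 bp from the form b start, and replicate 2 had no entry overlapping it.

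Signals near pha-4 leaned to replicate 2. The log2 ratio of the replicate 2 signal to the replicate 1 signal had a median of 1.38 over the 8 thresholded entries (range -0.29 to 2.69, SD 1.04, n = 8), against a median of 0.33 over the 2153 thresholded entries with both values (5th to 95th percentile -0.86 to 1.63). It was above 0 in 7 of the 8, and in 1465 of the 2153. The ratio was 2.69 at -210, 2.41 at -6044 and 2.04 at +3752, above 99.3%, 98.9% and 97.6% of all thresholded ratios respectively. At -210 the summit shifted by -175 bp from replicate 1 to replicate 2, so that ratio may not compare the same position. It was 0.37 at -3821 and 0.66 at +933, near the middle of the list. It was -0.29 at -7588. Over the 12 pooled entries with both values the median was 1.02, against 0.46 over 9526 pooled entries. Signals are not scaled between lists and the replicates number 2, so no test was made between them, and the cause of the difference was not tested.

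**Figure D2:**
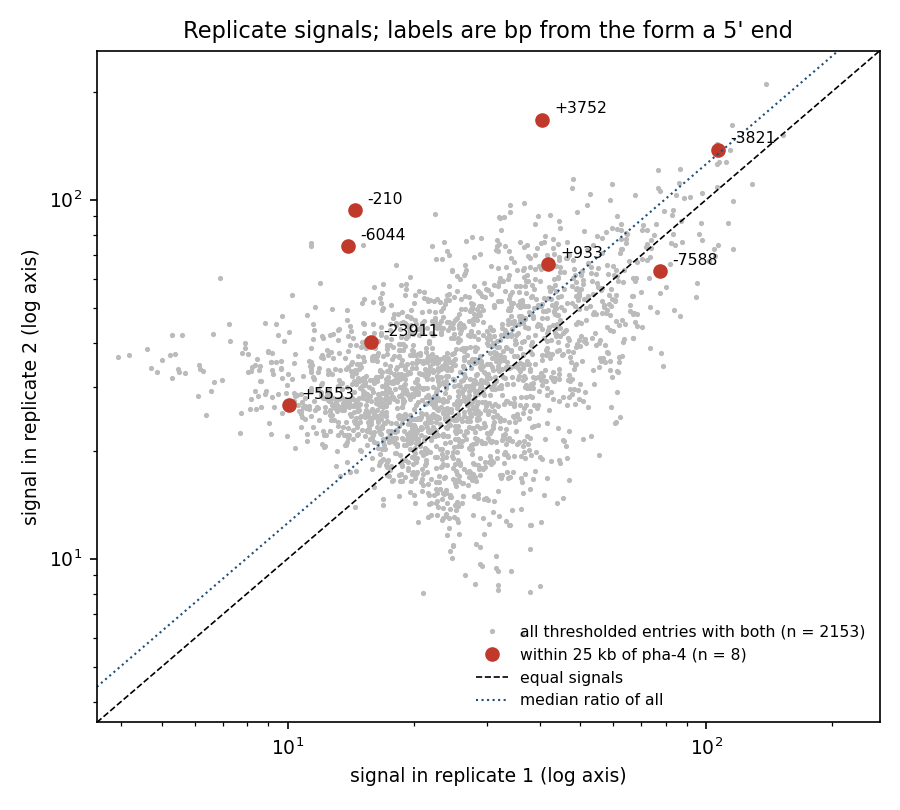
Signal in replicate 2 against signal in replicate 1, both on log axes, for all 2153 thresholded entries with an entry in each replicate (grey) and the 8 near pha-4 (red, labelled by bp from the form a start). The entries at -210, -6044 and +3752 lie along the upper edge of the cloud, with log2 ratios of 2.04 to 2.69, and the entry at -7588 lies below the line of equal signals.

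**Figure D3:**
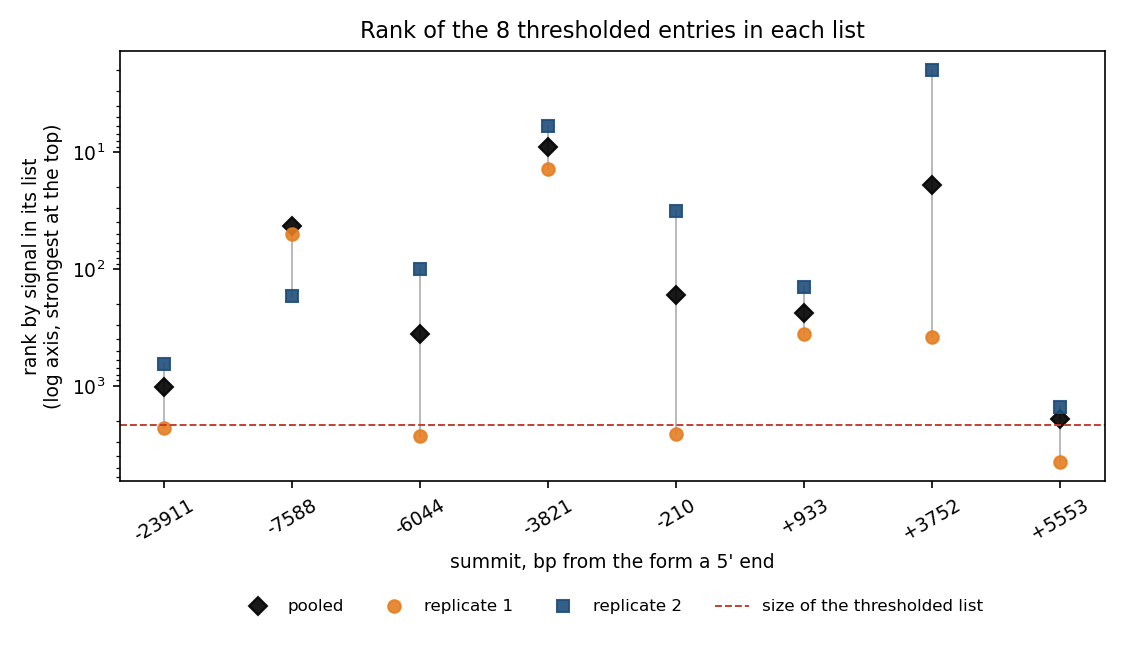
Rank by signal (log axis, strongest at the top) of the 8 thresholded entries near pha-4 in the pooled list and in each replicate, with a dashed line at rank 2177. The entry at -3821 stays between ranks 6 and 14, while the entry at +3752 has rank 2 in replicate 2 and 385 in replicate 1.

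Entries crowded into a single stretch. The pooled list held 22 summits in 14148 bp, from -8595 to +5553, with a median of 616 bp from summit to summit (208 to 1291), against 2308 bp over all neighbouring pooled summits. Their median signal was 31.6, and 21 of the 22 were above the median of the list. Summits from -8595 to -4525 were nearer to the dnj-25 start than to any pha-4 start. The pooled list is labelled as peaks and background, so these counts include weak entries. The deposited -log10 q within the stretch ran from 0.139 at -1245 to 3.46 at -3821 and other strong entries. Counted in windows of 15 kb opening at a summit, a length chosen after seeing the data, no other of the 21931 pooled windows held 22 entries, and the median window held 5. The window also held 22 entries in replicate 2, the most in that list (3 windows tied). Tied numbers here and below include the window or gene itself. In replicate 1 it held 16, place 76 with 75 tied, where the fullest window held 21. In the thresholded list it held 7 entries, place 2 (3 tied), where the fullest held 8.

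The stretch ended sharply on the downstream side. After the summit at +5553 the next pooled summit was 23690 bp away, within hif-1, the hypoxia-inducible factor gene, which is named here after its values were seen. The 4653 bp between pha-4 and elp-1 held 0 entries in all 4 lists, and so did the bodies of elp-1, F38A6.5 and F38A6.4. In bins of 5 kb from the form a start, the pooled list had 5 entries from -10 to -5 kb, 9 from -5 to 0, 7 from 0 to 5, 1 from 5 to 10 and 0 in each bin from 10 to 25 kb, where the mean over all chromosomes is 1.09.

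**Figure D4:**
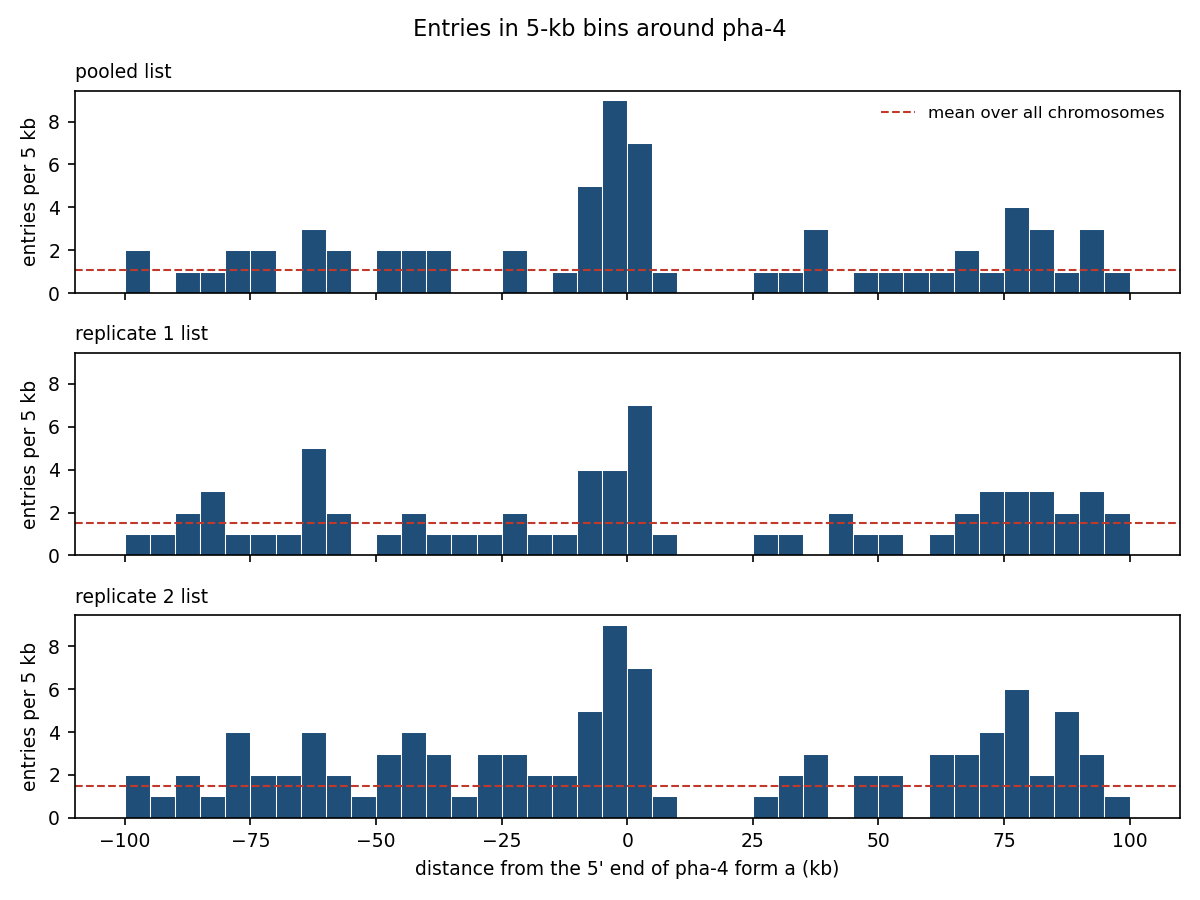
Number of entries in each 5-kb bin from 100 kb upstream to 100 kb downstream of the form a start (kb), for the pooled list and each replicate, with the mean over all chromosomes dashed. The pooled bins from -10 to 5 kb hold 5, 9 and 7 entries, and the 3 bins from 10 to 25 kb hold none in any of these lists.

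By region, the upstream stretch of 8705 bp held 14 pooled entries, 1.61 per kb and 7.35 times the density over the genome, and 4 thresholded entries, 21.2 times that density. Replicate 1 had 8 entries there (3.07 times) and replicate 2 had 14 (5.38 times). Among 2089 stretches of at least 5 kb between protein-coding genes, 14 pooled entries took place 4 (4 tied, median 1, highest 19). The 4 thresholded entries took place 2 (5 tied, highest 5), and the 8 entries of replicate 1 took place 74. The gene itself held 8 pooled and 3 thresholded entries, 5.03 and 19.0 times the genome density. Introns 1 and 2 each held 1 thresholded entry, place 60 with 275 tied among 8486 introns of at least 1 kb, where the highest was 4.

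Among 19973 protein-coding genes, the 8 thresholded entries within 25 kb took place 18 (7 tied), where the median gene had 1 and the highest had 10. Neighbouring genes share entries in such a count. The summed pooled signal of these 8 entries was 975, place 4, where the median was 48.9 and the highest 1019. The 25-kb range of dnj-25 takes in the same 8 entries and 1 more, between -40 and -35 kb, with a signal of 44.0. Genes placed above pha-4 by count and by sum therefore include this neighbour. In replicate 1 the 21 entries near pha-4 took place 3531, and in replicate 2 the 31 entries took place 394. The genes most like pha-4 by number and summed signal of thresholded entries, more than 50 kb away from it and from each other, were lit-1, a Nemo-like kinase gene on chromosome III, and C04A2.15 on chromosome II. Both had 8 thresholded entries within 25 kb, with summed signals of 440 and 396 and strongest entries of 120 and 75.1. No other gene had 8 after this spacing rule, and pha-4 had the highest summed signal and the strongest entry of the 3.

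Of the 8 windows, 7 held a PHA-4 consensus match or a GA repeat, as did 80.9% of all thresholded windows, and 4 held both, as did 27.9%. The consensus occurred in 6 of the 8 (75%, exact interval 34.9 to 96.8), against 61.1% of all thresholded windows, 51.3% of pooled windows below the threshold and 45.1% of 201-bp tiles of the genome. The stricter FoxA-type sites TGTTTAC and TGTTTGC, which are a subset of the consensus, occurred in 2 of 8, against 20.6% of thresholded windows and 5.54% of tiles. GAGAGA occurred in 5 of 8, against 47.7% of thresholded windows and 9.99% of tiles. All motifs were searched on both strands, and the exact intervals for 8 windows include the shares of the whole thresholded list.

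The intron 2 window at +3752, printed above, held 6 consensus matches, 3 of them TATTTGT. Their centres lay at -53, +1, +8, +16, +44 and +58 bp from the summit, so 3 of them stood within 16 bp of it. Only 6 of 2177 thresholded windows (0.276%) held 6 matches, the highest number found, and the mean was 1.01. Its GC content was 33.8%, below that of all but 3.86% of thresholded windows. It held no GAGAGA and no strict site. The intron 1 window at +933 held 3 consensus matches, at +4, +48 and +71, of which the second is the strict site TGTTTGC, with a GA repeat at -17.5 bp.

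The strongest entry, at -3821, held no consensus match in its window. It held GAGAGA at -27.5 and +61.5 bp from the summit. The 7-base word CTGCGTC, added because an earlier scan of these data had returned it, lay at +13. The window at -210 held a GA repeat 4.5 bp upstream of its summit, CTGCGTC at +8, and 1 consensus match at +91, TGTTGAT, which overlaps the word TGATAA. The window at -7588 held a GA repeat at -13.5 and 1 consensus match at +32. The window at -6044 held neither a consensus match nor a GA repeat. The ipla-3 window at -23911 held the strict site TGTTTAC at -32, GA repeats at +4.5 and +51.5 and CTGCGTC at 0 and +37. The window at +5553 held 2 consensus matches, at -49 and +55.

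Words of other factor families were searched as well. The GATA-type word TGATAA was in 1 of 8 windows, against 6.89% of thresholded windows and 17.9% of tiles. The T-box-type word TCACAC was in 2 of 8 (13.9% of thresholded windows), and the NK-2-type word CAAGTG was in 2 of 8 (13.6%). CTGCGTC was in 3 of 8, against 21.0% of thresholded windows and 1.55% of tiles. Of the 19 pooled windows near pha-4 below the threshold, 6 held the consensus, 2 held GAGAGA and 0 held CTGCGTC. Over all pooled windows below the threshold, these shares were 51.3%, 18.5% and 4.66%.

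Matches outside the windows of thresholded entries were common. Some of these lay in windows of pooled entries below the threshold, such as 3 consensus matches at -4871. The upstream stretch held 27 consensus matches (3.10 per kb), of which 2 lay wholly in a thresholded window, and 17 GA repeats, of which 4 did. Thresholded windows cover 804 of the 8705 bp of this stretch. Intron 2 held 10 consensus matches (7.52 per kb), 6 of them in its 1 thresholded window, which covers 201 of its 1329 bp. The stretch downstream of pha-4, with 0 entries, held 33 consensus matches, 7.09 per kb. The density of matches over the genome is not given here. A match is a description of the letters in a window, not a bound site.

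**Figure D5:**
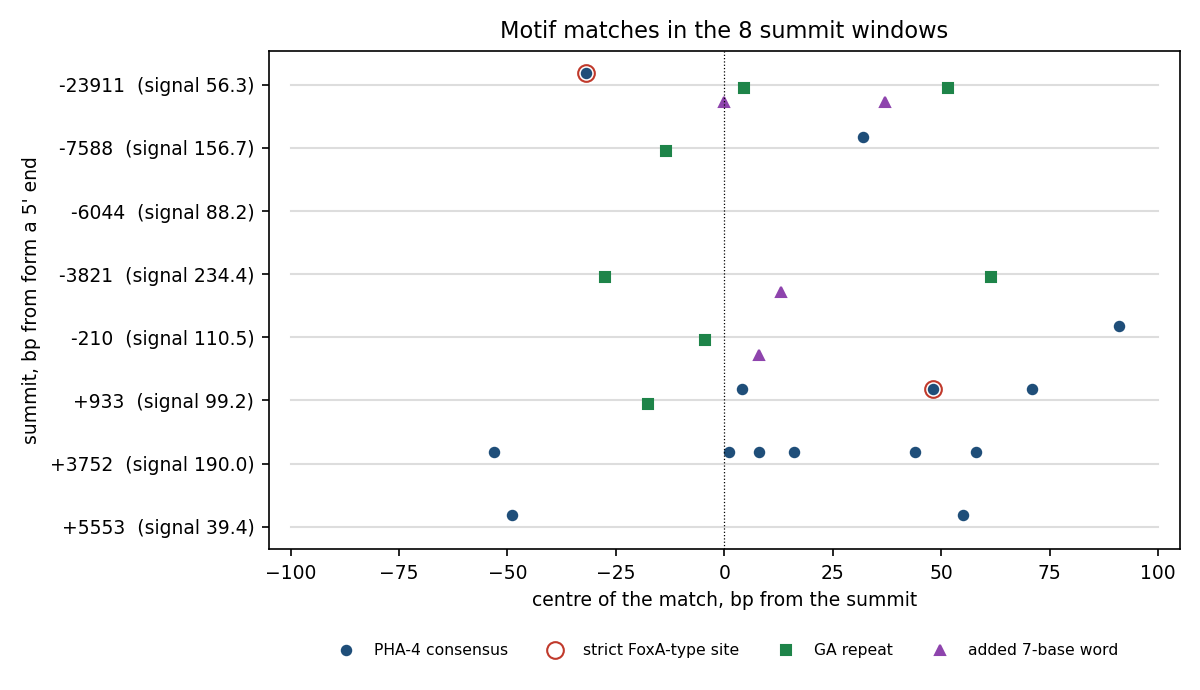
Centres of motif matches in the 201-bp windows of the 8 thresholded entries near pha-4, as bp from the summit, 1 row per entry with its distance from the form a start and its pooled signal; circles are PHA-4 consensus matches (ringed where strict), squares GA repeats and triangles CTGCGTC. The row at +3752 carries 6 circles and no square, the row at -3821 carries 2 squares and no circle, and the row at -6044 is empty.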

How the data were processed

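ChIP-seq peak lists of 2 biological replicates were analysed on ce11. Per the deposited file lists, the authors made a list for each replicate and another for the pooled reads, each against control reads, and the thresholded list was derived from them by the irreproducible discovery rate. The sources used here do not name the caller, the aligner or the threshold. Read totals were not analysed here, so depth is unknown. In the deposited lists signal is the caller's own value, not scaled between lists, and the deposited -log10 q of each entry was not used for ranking. Replicate lists stop at 30000 entries and include weak ones, and the pooled list is labelled as peaks and background.

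Entries were ranked by signal, equal signals sharing the best rank, and placed on the Ensembl release 115 annotation of WBcel235, which is ce11 (chromosome V is 20924180 bp in both). A replicate's value is its strongest entry overlapping by at least 1 bp. Near pha-4, most intervals of a list have the same width, with the summit at the centre. Overlap there thus mainly reflects the distance between summits, and interval ends are not measured edges of binding. Motifs were searched 100 bp on each side of summits on both strands. Python 3.11.15, numpy 2.4.6, pandas 2.3.3 and scipy 1.17.1 were used, and the scripts were tested on simulated lists. The genes named are pha-4, those at or nearest to its thresholded entries, and up to 5 genes with the nearest count and summed signal. The members, lists and motifs were chosen with earlier results of these data known, and no test was run.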

Additional observations from a re-analysis of the deposited data

How the results depend on the processing

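Of 24 alternative settings, 17 kept their result within 1.5 times of its value, within 1 SD, or at the same place, and 7 moved it. The number of thresholded entries near pha-4 was 8, and 6 to 14 when the strongest 2177 entries of a single replicate were used, the 14 coming from replicate 2 alone. The stronger part of the list, above its median, kept 7, and the ce10 lists, matched by signal, gave 9. The entry added in ce10 was that at -831. With summits required within 50 bp, 5 of 8 thresholded entries had an entry in both replicates. Those without were at -3821, +3752 and -210, where the summit shifted by -51, 52 and -175 bp from replicate 1 to replicate 2. The first 2 of these are the strongest entries at the locus and lay just outside the limit. Strict sites were in 2 windows where the consensus was in 6. Within 10 kb pha-4 took place 5 among genes, against 18 within 25 kb. The fullest pooled window took place 1 at 15 kb, place 16 at 20 kb and place 58 at 30 kb, and its place was 1 to 76 in the single replicates, 76 in replicate 1. The 15-kb and other window lengths, the ce10 matching and CTGCGTC were chosen after seeing the data. No paired analysis was possible because all samples form 1 group. Depth is unknown, so a missing entry in a replicate does not show that the protein was absent there.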

Other observations

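Of the 27 pooled entries within 25 kb, 5 lay outside the crowded stretch: the ipla-3 entry at -23911 and 4 with signals of 9.82 to 17.3. These 4 lay in dnj-25 (at -11461, 17.3), in the overlap of dnj-25 with srxa-1, a chemoreceptor-type gene (at -20736, 9.82), and in hif-1 (at +29243, 15.7, and at +32164, 10.1), the genes srxa-1 and hif-1 being named after their values were seen. Replicate 1 had no entry overlapping those at -20736 and +32164.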
